A study of Mus musculus with 8 samples.

Results

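The Fos and Jun family encodes the subunits of AP-1, a transcription factor built as a dimer of leucine zipper proteins. The 7 genes Fos, Fosb, Fosl1, Fosl2, Jun, Junb and Jund were followed in brain RNA of mice without food for 17 h (fasted, 4 arrays) and of fed mice (4 arrays). Members were chosen by gene name: every non-control probe that the array design assigns to one of the 7 symbols was taken, which gave 8 probes of the 39429 on the array. Fosl2 had 2 probes and each other gene had 1, and the Fos probe was printed as 10 spots. The labels give the tissue as brain, without a region, and nothing further on strain, sex, age or the number of mice per sample is given in the sources used here. The p-values therefore speak only for the spread among these 8 samples, part of which may be technical, and precision is limited by the number of arrays.

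Fos proteins (FOS, FOSB, FOSL1 and FOSL2) bind DNA only as partners of other zipper proteins, mainly the Jun proteins, whereas Jun proteins (JUN, JUNB and JUND) also pair among themselves. In neurons, Fos, Fosb and Junb are immediate early genes: synaptic activity raises their transcription within minutes through CREB, which binds cyclic AMP response elements (CRE), and through serum response factor, and their messages are short-lived. Fosb and Fosl2 products persist longer, Jund is expressed at a steadier level, and Fos is widely used as a marker of recently active neurons.

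Of the 8 probes, 6 were well above background on all 8 arrays, and these represent 6 genes. The Fosl1 probe and the second Fosl2 probe were not well above background on any fasted or any fed array, so no fold is given for either. The probe sequences below are shown because each is what the array measured for its gene, and because the Fosl2 pair differ in whether they gave a signal. Each line gives the first 30 of a probe's 60 bases, as the array design writes them, in lower case since no position is singled out.
Fosb, chr7:19888198-19888227 (mm9, minus strand): actgccgaccacaattcattgactccatag
Fosl2, well above background, chr5:32460076-32460105 (mm9, plus strand): gctatggaggaaagaacatattaaaaactt
Fosl2, not above background, chr5:32455088-32455117 (mm9, plus strand): gattgctgagctgcagaaggagaaggagaa
Fos, chr12:86817900-86817929 (mm9, plus strand): ggactttattttccagtagatagaaatcaa
The design places the Fosb probe from base 3593 of its transcript NM_008036, and a single probe of this gene gives no separate value for its splice forms. The Fosl2 probe with signal starts at base 5726 of NM_008037 and the one without at base 738. The Fos probe starts at base 1773 of NM_010234. The exon or untranslated region under each probe was not analysed here.

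The promoter letters of 4 members follow, because Fosb and Fosl2 fell, Fos lay between them and the Jun genes, and Jun did not pass the test. Each line holds the 120 bases before the RefSeq start on the gene's own strand, in build GRCm38.p6, and capitals mark the motif letters described below.
Fosb, chr7:19310046-19310165 (minus strand): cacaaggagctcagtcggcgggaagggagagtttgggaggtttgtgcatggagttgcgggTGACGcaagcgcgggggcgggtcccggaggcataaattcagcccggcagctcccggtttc
Fosl2, chr5:32136352-32136471 (plus strand): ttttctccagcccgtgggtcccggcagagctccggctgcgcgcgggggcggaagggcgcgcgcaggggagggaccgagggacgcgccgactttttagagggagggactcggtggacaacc
Fos, chr12:85473770-85473889 (plus strand): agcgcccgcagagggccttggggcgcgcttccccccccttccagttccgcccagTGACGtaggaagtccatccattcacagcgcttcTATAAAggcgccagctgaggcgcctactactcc
Jun, chr4:95052223-95052342 (minus strand): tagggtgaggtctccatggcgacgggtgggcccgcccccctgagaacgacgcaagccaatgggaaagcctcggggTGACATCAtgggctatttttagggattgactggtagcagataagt
The core of the cyclic AMP response element, TGACG on either strand, was found in the windows of 3 of the 6 members in the table, Fos, Fosb and Junb. Windows ran from 250 bases before to 50 bases after the start, and 20.8% of all 32851 such windows hold these letters. In Fos it stood at -66 to -62 and again at -129 to -125 from the start, in Fosb at -60 to -56 and in Junb at -106 to -102. The TGACATCA element for which the Jun promoter is known stood at -45 to -38 of Jun and in no other of the 6, against 3.62% of all windows. The full element TGACGTCA (1.79% of windows), the AP-1 site TGANTCA (7.81%) and the CArG box of serum response factor (1.63%) were in 0 of the 6 windows, all searched on both strands. Bases farther than 250 before the start were not searched, so these 0 counts do not cover sites farther upstream. Every TGACGTCA also holds TGACG, and the matches listed here do not overlap each other. The TATA motif TATAAA, searched on the gene's strand, stood at -33 to -28 of Fos, against 8.32% of all windows. The Junb window held it too, but at bases 1 to 6 from the start onward and not before the start. A match is a description of letters and not of a bound site.

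Fosb and Fosl2 were lower in fasted brain, and Fos had lower values that narrowly missed the threshold, while the Jun genes showed changes of at most 0.22 on the log2 scale, none past the threshold. Values are log2 signals after subtracting each array's 75th percentile, so 0 is a signal equal to that percentile, and levels of different probes are not set against each other. Of the 6 genes measured, 2 fell and 0 rose at an adjusted p under 0.05 (limma, Benjamini-Hochberg over 26066 probes), where 9.11% of 15184 genes fell, 9.48% rose and 18.6% (16.9% of probes) passed in either direction. With median scaling 914 genes fell and 1279 rose (6.02% and 8.42%), against 1383 and 1440 here. Before adjustment, limma put Fos (lower) and Jun (higher) under the same threshold as well. An exact two-sided permutation test over samples gave p = 0.0286, the smallest that 4 against 4 allows, for Fos, Fosb and Fosl2, and p = 0.0571 for Jun, 0.171 for Junb and 0.571 for Jund. The 4 fasted values lay entirely below the 4 fed values for 3 of the 6 genes, against 13.1% of all genes, and 27.2% of all genes had separate groups in either direction. The median log2 difference over all genes was -0.0060. In RNA of brain tissue, fewer cells of a type and less RNA per cell cannot be told apart.

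**Figure D1:**
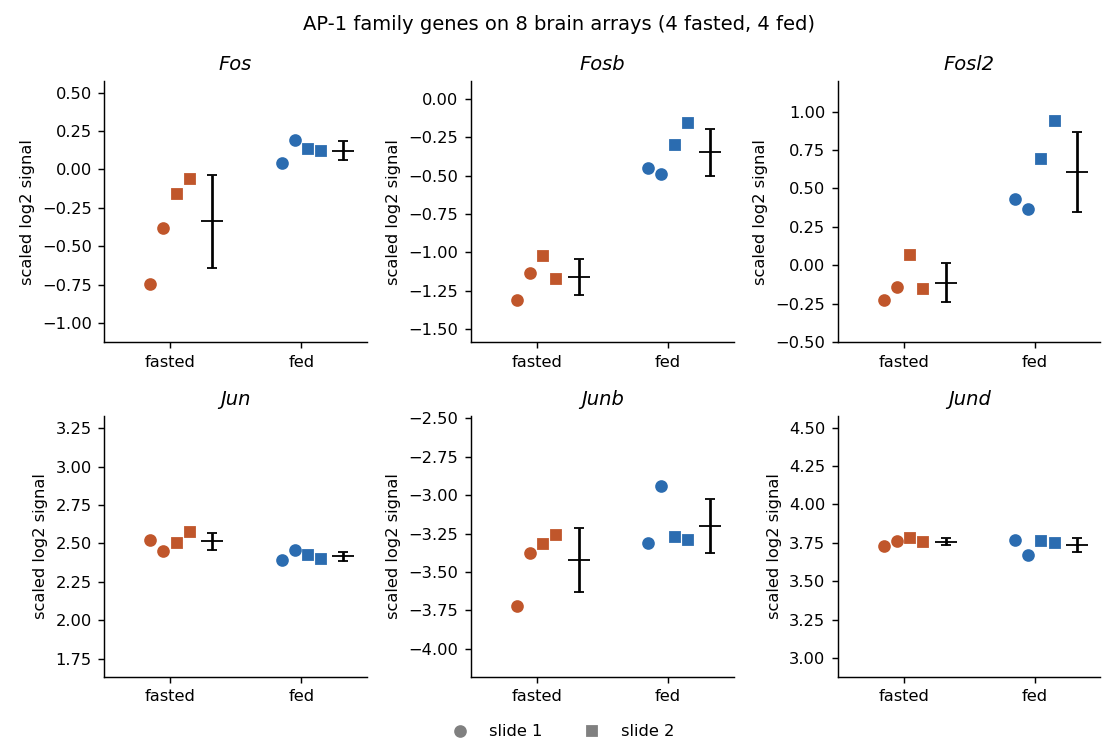
Scaled log2 signal (y axis; log2 over the array's 75th percentile, each panel spanning an equal range) of the 6 measured genes on the 4 fasted and 4 fed arrays. Points are arrays (circles slide 1, squares slide 2) and black bars are the group mean with its SD; fasted points lie wholly below fed points for Fos, Fosb and Fosl2 and overlap with them for Jun, Junb and Jund.

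Fosb, which encodes the full-length activator FOSB and the truncated, long-lived product known from chronically stimulated neurons, had the largest log2 difference of the 6 genes. Its scaled log2 signals were -1.31, -1.14, -1.03 and -1.17 on fasted replicates 1 to 4, against -0.45, -0.49, -0.30 and -0.16 on fed replicates 1 to 4. The highest fasted array was still well below the lowest fed array. Group means (± SD, n = 4) were -1.16 ± 0.12 for fasted arrays and -0.35 ± 0.15 for fed arrays. The log2 difference was -0.81 ± 0.09 (SE; limma adjusted p = 0.00186; 95% confidence interval -1.01 to -0.61), so the signal fell by 43.0%. In the scanner's own units Fosb read 769 to 943 on fasted arrays, against 1209 to 1603 on fed arrays, before any scaling.

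Fosl2, also called Fra-2, is a Fos relative that lacks the strong activation domain of FOS and is induced later than it. Its probe with signal (mm9 chromosome 5, 32460076 to 32460135) gave -0.23, -0.14, 0.07 and -0.15 on fasted replicates 1 to 4, against 0.43, 0.37, 0.69 and 0.94 on fed replicates 1 to 4. All fasted arrays were below all fed arrays, and fed replicates 3 and 4, both on slide 2, were the highest. The means (± SD, n = 4) were -0.11 ± 0.13 for fasted arrays and 0.61 ± 0.26 for fed arrays. The log2 difference was -0.72 ± 0.13 (SE; limma adjusted p = 0.00974; 95% confidence interval -1.02 to -0.42), and the signal fell by 39.4%. The second Fosl2 probe, at chromosome 5, 32455088 to 32455147, read 1.75% to 2.85% of the array's 75th percentile on fasted arrays and 2.58% to 2.76% on fed arrays, none well above background. The fall of Fosl2 thus rests on 1 probe.

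Fos encodes FOS, the classical partner of JUN. Its scaled log2 signals were -0.74, -0.38, -0.16 and -0.06 on fasted replicates 1 to 4, against 0.04, 0.19, 0.14 and 0.12 on fed replicates 1 to 4. The scaled signals of the groups did not overlap, but fasted replicates 3 and 4, on slide 2, came close to the fed arrays. Before scaling the groups did overlap: the spot means of fasted replicates 3 and 4 were 1721 and 1729 intensity units, above the 1699 of fed replicate 1. Means (± SD, n = 4) were -0.34 ± 0.30 for fasted arrays and 0.12 ± 0.06 for fed arrays, a log2 difference of -0.46 ± 0.14 (SE; limma adjusted p = 0.0547; 95% confidence interval -0.77 to -0.14). Fos passed with slide as a block, where the adjusted p was 0.0367, and its adjusted p over all alternatives ran from 0.0274 to 0.262. The difference was -0.68 on slide 1 and -0.24 on slide 2. A limma interaction of slide and fasting gave 0.44 ± 0.17 for Fos (SE; unadjusted p = 0.0444, adjusted p = 0.9999), and this interaction called 0% of probes.

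Because Fos was printed 10 times, the spread of repeated spots on an array can be given. On single arrays the 10 spots varied by a coefficient of variation of 2.50% to 5.55%. In intensity units, the spots ran from 1070 to 1271 on fasted replicate 1, from 1244 to 1344 on fasted replicate 2, from 1532 to 1861 on fasted replicate 3 and from 1592 to 1863 on fasted replicate 4. On fed replicates 1 to 4 they ran from 1608 to 1779, 1840 to 2115, 1694 to 1990 and 1745 to 2093. In log2, the SD of the spots of an array was 0.04 to 0.08, which leaves out labelling, hybridisation and scaling, and the SD between the 4 fasted arrays was 0.30. Taken spot by spot after scaling, the log2 difference was between -0.50 and -0.43, and the groups were separate for 9 of the 10 spots. One spot of fed replicate 3 carried an outlier flag. It is counted in these spot values, where the array's mean is 1842 over all 10 spots and 1859 over the 9 without a flag, and was left out of the scaled signal of 0.14.

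**Figure D2:**
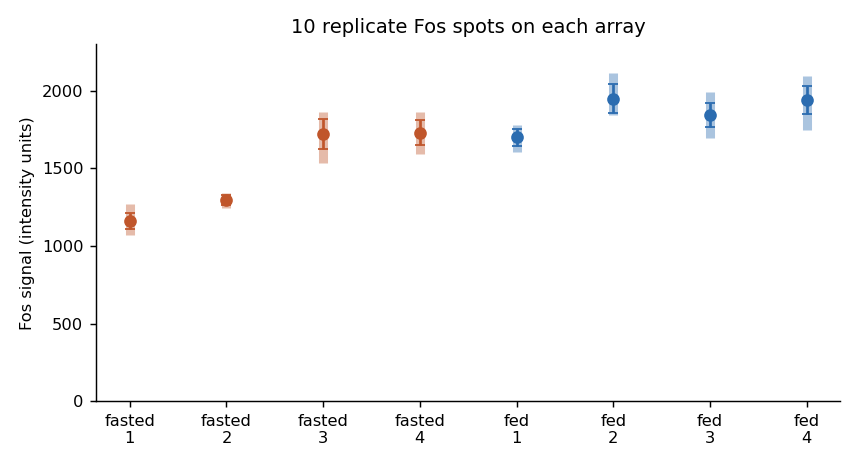
Fos signal in intensity units (y axis, from 0, before scaling) on each fasted and fed array; pale bars span the lowest to the highest of 10 spots, points are their mean and error bars their SD, the flagged spot of fed replicate 3 included. Fasted replicates 1 and 2 lie below every other array, and fasted replicates 3 and 4 overlap the spot range of every fed array on this unscaled axis.

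Fosl1, or Fra-1, the remaining Fos relative and one known mainly from dividing and wounded tissue, read 39.4 to 55.9 intensity units on fasted arrays and 39.9 to 58.4 on fed arrays. It was not well above background on any of them.

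Jun, the main partner of FOS and the substrate of the Jun N-terminal kinases, gave scaled log2 signals of 2.52, 2.45, 2.50 and 2.58 on fasted replicates 1 to 4, against 2.39, 2.45, 2.43 and 2.40 on fed replicates 1 to 4. Fasted replicate 2 lay just under fed replicate 2, and the other fasted arrays were above every fed array. The log2 difference was 0.10 ± 0.04 (SE; limma adjusted p = 0.112), with a 95% confidence interval of 0.01 to 0.18.

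Junb, an immediate early gene whose product often restrains JUN, gave -3.72, -3.37, -3.32 and -3.26 on fasted replicates 1 to 4, against -3.31, -2.94, -3.27 and -3.29 on fed replicates 1 to 4. The groups overlapped: fasted replicate 1 was the lowest, fed replicate 2 the highest, and the other arrays of both groups lay between -3.37 and -3.26. The log2 difference was -0.22 ± 0.12 (SE; limma adjusted p = 0.254; 95% confidence interval -0.50 to 0.06). It was -0.42 on slide 1 and -0.0095 on slide 2, -0.12 without fasted replicate 1 and -0.13 without fed replicate 2.

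Jund, known as the most steadily expressed Jun gene, gave 3.73, 3.76, 3.78 and 3.76 on fasted replicates 1 to 4, against 3.77, 3.67, 3.76 and 3.75 on fed replicates 1 to 4, which overlap throughout. The log2 difference was 0.02 ± 0.03 (SE; limma adjusted p = 0.721), and its 95% confidence interval, -0.06 to 0.10, does not reach the -0.81 of Fosb.

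**Figure D3:**
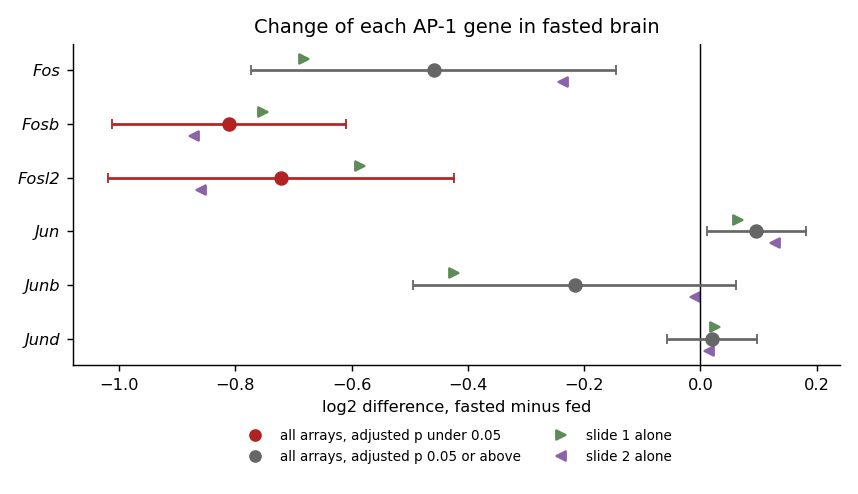
Log2 difference, fasted minus fed (x axis), of the 6 genes with 95% confidence intervals over all 8 arrays, and as triangles within each slide (2 arrays per group). Fosb and Fosl2 (red) passed the threshold and were lower on both slides; Fos and Junb differed more on slide 1 than on slide 2, and Jun and Jund lay close to 0.

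Whether members changed by different amounts was tested directly, with an exact two-sided permutation test of the per-array difference between the genes of a pair, over the 70 ways to split the arrays. The smallest p this design allows is 0.0286, and with adjustment over the 15 pairs no adjusted p was under 0.05, the lowest being 0.0536. That lowest value was reached by 8 pairs: Fosb against each of Jun, Junb and Jund, Fosl2 against Jun and Jund, Fos against Jun and Jund, and Jun against Junb. With 0.0286 as the smallest p, no single pair could pass alone after adjustment, however large its difference. The adjusted values therefore cannot decide whether a given pair differed. The log2 difference of Fosb minus that of Jun was -0.91, and for Fosl2 and Fos minus Jun it was -0.82 and -0.56. Against Jund these values were -0.83, -0.74 and -0.48 for Fosb, Fosl2 and Fos. Fosb and Fosl2 differed from each other by -0.09 (exact permutation p = 0.229, adjusted 0.245), and Fos differed from Fosb by 0.35 (p = 0.0571, adjusted 0.0952).

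The arrays also differed within each group. After each group's mean was removed, Fosb and Fosl2 deviated together over the 8 arrays with a Pearson r of 0.96, and Fos and Junb with an r of 0.83. Fed replicate 4 and fasted replicate 3 were high for both Fosb and Fosl2, whereas fasted replicate 1 was low for both Fos and Junb. Without the pair of arrays farthest from the middle on the first gene, r was 0.99 for Fosb and Fosl2 (fed replicate 4 and fasted replicate 1 left out) and 0.61 for Fos and Junb (fasted replicates 1 and 4 left out), over 6 arrays. Jund followed at 0.60 with Fosb and 0.54 with Fosl2, and the other pairs lay between -0.45 (Jun and Jund, -0.83 without 2 arrays) and 0.44 (Fos and Fosb). These values are descriptions of 8 arrays that share slides and one scaling per array, and differences between slides were not removed. Slide 2 minus slide 1 was 0.18 for Fosb and 0.28 for Fosl2 in log2 (limma unadjusted p = 0.0210 and 0.0160, adjusted 0.265 and 0.236). For Fos and Junb it was 0.23 and 0.05 (adjusted p = 0.450 and 0.887).

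**Figure D4:**
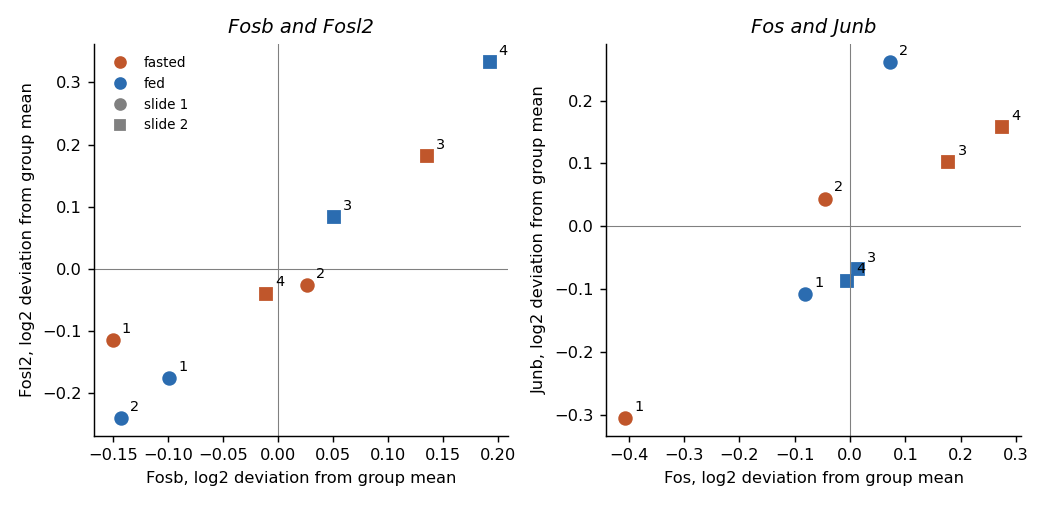
Log2 deviation of each array from its group's mean, Fosb against Fosl2 on the left and Fos against Junb on the right (circles slide 1, squares slide 2, numbers are replicates). Fosb and Fosl2 deviate along one line (r = 0.96), and the Fos and Junb pattern (r = 0.83) has fasted replicate 1 at its lower end.

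Of all other genes, those whose deviations were most like Fos were Hmox1, encoding the haem oxygenase induced by stress, with an r of 0.99, Dusp1, a phosphatase of MAP kinases and itself an immediate early gene, with 0.97, Gadd45b, a stress and activity responsive gene, with 0.97, and Fbxw4 with 0.97. Most like Fosb were Bax, a pro-apoptotic gene, Klhl18, Mlc1, an astrocyte membrane protein gene, and Otud1, each with an r of 0.98. These are the highest of 15184 genes over 8 arrays. For Fos the SD was 0.30 among fasted and 0.06 among fed arrays, so its r values rest mostly on the 4 fasted arrays. Values of r without the farthest arrays were not computed for these genes. Of these 8 genes, Fbxw4 alone passed for fasting, at a log2 difference of -0.21 (limma adjusted p = 0.00915). Hmox1 gave -0.05 and Dusp1 0.11, with adjusted p of 0.372 and 0.540.

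Calls among regulators of the Fos and Jun genes ran in both directions. Of 23 regulators of the serum response factor and CREB routes, 2 rose, 2 fell and 19 did not pass, so that 17.4% were called against 18.6% of all genes, with a median log2 difference of 0.04. Srf, encoding serum response factor itself, gave 0.84, 0.88, 0.77 and 0.85 on fasted replicates 1 to 4, against 1.14, 1.13, 1.12 and 1.13 on fed replicates 1 to 4. The fed arrays were nearly equal and every fasted array lay below them, at a log2 difference of -0.30 ± 0.03 (SE; limma adjusted p = 0.00206). Mef2d, another activity-dependent factor, fell by 0.17 on the log2 scale and was named after its value was seen; 9 of 20 alternatives, median scaling among them, ended its call. Camk4, the nuclear calcium kinase that acts on CREB, rose by a log2 difference of 0.30 ± 0.04 (adjusted p = 0.00314), and Mkl1, a coactivator of serum response factor, by 0.24 ± 0.04 (adjusted p = 0.010).

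Among 34 MAP kinases, their upstream kinases and their phosphatases, 3 rose, 3 fell and 28 did not pass, so that 17.6% were called, again near the 18.6% of all genes, and the median was -0.02. Map3k12, the dual leucine zipper kinase of the JNK route in neurons, gave -2.10, -2.12, -2.06 and -2.01 on fasted replicates 1 to 4, against -2.49, -2.48, -2.54 and -2.42 on fed replicates 1 to 4, with all fasted arrays above all fed ones. Its log2 difference was 0.41 ± 0.04 (SE; limma adjusted p = 0.00135). Dusp14, a dual specificity phosphatase, fell by 0.30 on the log2 scale (adjusted p = 0.00337). Dusp10, a phosphatase of JNK and p38, was well above background on 4 fasted but only 2 fed arrays. It rose by a log2 difference of 0.45 (adjusted p = 0.00539), but with normexp background correction its difference was 0.07 (adjusted p = 0.570). Named after their values were seen, Map2k4, a kinase that activates JNK, rose by a log2 difference of 0.23, while Mapk11 (p38 beta) and Mapk8 (JNK1) fell by 0.35 and 0.13 (log2). Among 20 alternatives, 14 ended the call of Mapk8, 6 that of Map2k4 and 2 that of Mapk11.

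Fos messages carry AU-rich elements, to which several proteins bind, some of them speeding decay. The list was drawn up by binding and not by effect on decay, and a change in decay was not tested. Of 10 measured genes of AU-rich element binding proteins, 3 rose and 0 fell (9.48% and 9.11% of all genes), with a median of -0.03. At an unadjusted p under 0.05 Tia1, named after its value was seen, gave -0.24 (limma adjusted p = 0.0688), and it passed without fasted replicate 3 (-0.16, adjusted p = 0.0327), with quantile normalization (0.0497) and with limma-trend (0.0471). Those that rose were Zfp36l1 and Zfp36l2, decay factors of the tristetraprolin family, at log2 differences of 0.19 ± 0.03 and 0.23 ± 0.05 (SE; limma adjusted p = 0.0084 and 0.0191), and Hnrnpd (AUF1) at 0.16 ± 0.04 (adjusted p = 0.0238). With the replicate block, Zfp36l2 and Hnrnpd did not pass (adjusted p = 0.0583 and 0.058). Zfp36l2 also missed the threshold without fasted replicate 1 (adjusted p = 0.051), and Hnrnpd passed in 3 of the 8 fits that left out a single array. Of 20 alternatives, 10 ended the call of Hnrnpd, 4 that of Zfp36l2 and 2 that of Zfp36l1. For Hnrnpd these included normexp background (adjusted p = 0.0503) and no filter on dim probes (0.0654). Zfp36, which encodes tristetraprolin itself, was listed but had no tested probe. Of 8 genes for turnover and cofactors of Fos and Jun proteins, 1 rose and 1 fell (25.0% called, against 18.6% of all genes): Cops5, a JUN coactivator and signalosome subunit, gave 0.16 (adjusted p = 0.0138), and Det1, part of a ubiquitin ligase complex that acts on JUN, gave -0.27 (adjusted p = 0.0178). Fbxw7, a ubiquitin ligase subunit that recognises JUN, gave 0.15 (adjusted p = 0.0815) but was past the threshold in the fit with a slide block (adjusted p = 0.0497) and in limma-trend (0.0456).

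Dimer partners outside the family were split. Of 21 measured, 3 fell, 2 rose and 16 did not pass, so that 23.8% were called against 18.6% of all genes, with a median of -0.05. Batf3, a small zipper protein that pairs with Jun proteins, gave -2.76, -2.62, -2.76 and -2.74 on fasted replicates 1 to 4, against -2.45, -2.29, -2.35 and -2.34 on fed replicates 1 to 4, with no overlap. Its log2 difference was -0.36 ± 0.05 (SE; limma adjusted p = 0.0034). Ddit3, the stress factor CHOP, fell by 0.25 on the log2 scale, and Atf7, a close relative of ATF2, rose by a log2 difference of 0.31 (adjusted p = 0.0191), but with normexp background correction gave 0.20 and did not pass (adjusted p = 0.0689). The other members past the threshold, named after their values were seen, were Atf3, a stress-induced partner of JUN, which fell by 0.82, and Maff, a small Maf protein, which rose by a log2 difference of 0.71. With normexp background correction these gave -0.51 and 0.45; of 20 alternatives, 8 ended the call of Atf3 and 10 that of Maff.

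Among genes reported elsewhere as AP-1 targets, calls were split evenly. Of 20 measured of 30 listed, 4 rose, 4 fell and 12 did not pass, with a median of -0.01. In all 40% of the list was called, against 18.6% of all genes. Vegfa, the vascular growth factor, gave -0.27 ± 0.04 (log2 difference, SE; limma adjusted p = 0.00544). Hrk, a pro-apoptotic gene of neurons that depends on JUN, gave 0.28 ± 0.04 (adjusted p = 0.00693), and Plat, tissue plasminogen activator, 0.29 ± 0.05 (adjusted p = 0.00693).

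Of 25 other immediate early genes, 9 fell, 2 rose and 14 did not pass, with a median of -0.21 against -0.0060 for all genes. The share that fell was 36.0%, against 9.11% of all genes, and 44.0% were called, against 18.6%. Like the other lists, this one was chosen with earlier results of these data known, so its shares are not independent of them. Nr4a2 and Egr4, transcription factors induced by activity, gave -0.35 ± 0.04 and -0.47 ± 0.08 (log2 difference, SE; limma adjusted p = 0.00169 and 0.00879), and Per1, a clock gene that is also induced by activity, -0.34 ± 0.06 (adjusted p = 0.00997). The 2 that rose, named after their values were seen, were Btg2, an antiproliferative gene, and Klf6, a zinc finger factor gene, at log2 differences of 0.70 and 0.23 (adjusted p = 0.014 and 0.00998). Also named after their values were seen, the other genes that fell were Egr2 (-1.05), Arc (-0.60), Klf10 (-0.55), Nr4a1 (-0.43), Egr1 (-0.39) and Klf4 (-0.24). Their limma adjusted p ran from 0.00999 to 0.0265, and their calls under the alternatives are not given here. Egr4 was lowest on fasted replicate 1, at 1.96, as was Fos, with 2.18 to 2.32 on the other fasted arrays and 2.59 to 2.72 on the fed arrays. For no gene named from these lists did another kept probe pass in the opposite direction.

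**Figure D5:**
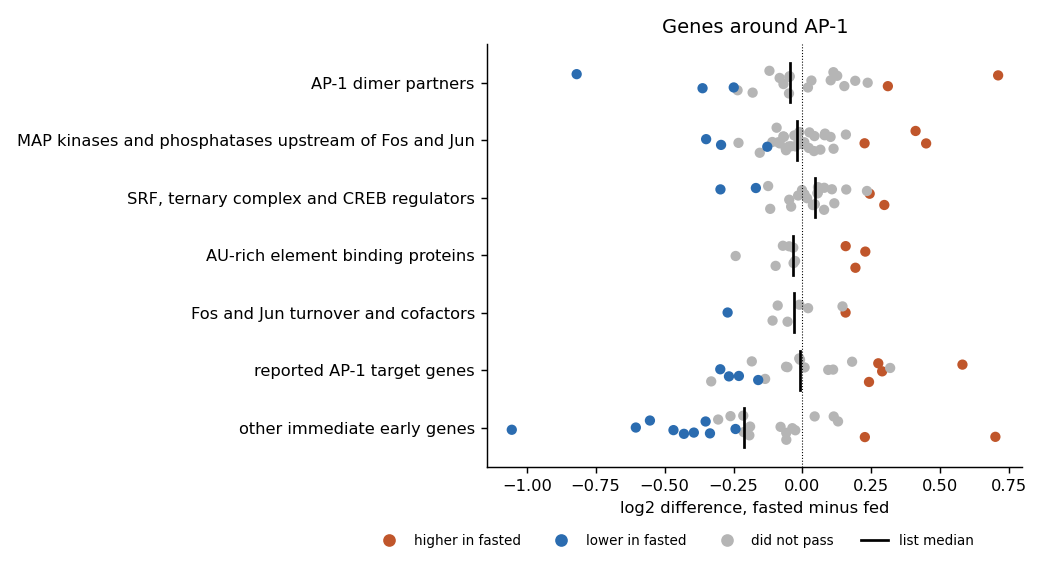
Log2 difference, fasted minus fed (x axis), of each measured gene in 7 lists around AP-1; coloured points passed the threshold, grey points did not, and black bars are list medians. Coloured points lie on both sides of 0 in 6 lists, while for AU-rich element binding proteins 3 lie above and 0 below; the immediate early genes have the lowest median, -0.21.

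Levels of cell type markers were taken beside these results. All 10 neuron markers were well above background on every array, and 0 passed (limma; Tubb3 and Slc17a7, both higher, had an unadjusted p under 0.05), with a mean scaled log2 level of 3.70 to 3.76 on fasted arrays and 3.66 to 3.68 on fed arrays. For the lists that follow, 9.11% of all genes fell. Of 7 microglia markers 4 fell (57.1%), with a mean level of 1.29 to 1.45 on fasted and 1.60 to 1.71 on fed arrays. Of 7 oligodendrocyte markers 4 fell (57.1%; 2.01 to 2.22 on fasted and 2.29 to 2.34 on fed arrays), and of 7 endothelial markers 2 fell (28.6%; -0.92 to -0.81 on fasted and -0.73 to -0.66 on fed arrays). Of 7 astrocyte markers 1 rose and 1 fell, of 6 blood cell markers 0 rose and 1 fell, of 6 choroid plexus markers 1 rose and 1 fell, and of 6 markers of meninges and fibroblasts 0 rose and 1 fell. The blood cell marker that fell, named after its value was seen, was Ptprc (log2 difference -0.65, limma adjusted p = 0.00151). The markers Hba-a1, Hbb-b1 and Alas2 did not pass. The part of these shifts in the changes of Fosb and Fosl2 was not tested. Per array, 24567 to 27220 probes stood well above background, with 0 spots saturated. Slide positions 1 and 3 held the fasted samples and positions 2 and 4 the fed ones, so position and fasting cannot be told apart.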

How the data were processed

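Brain RNA was hybridised to single-colour (Cy3) Agilent arrays, 4 fasted and 4 fed; titles gave group and replicate number. Spot values in the deposited scanner files are an intensity, written by Feature Extraction 11.0.1.1 for an mm9 design per the file headers, while version 10.10.1.1 stands in the submitters' processing notes. The deposited series table is a linear ratio: set against the scanner files it is each signal over the 75th percentile of its array, divided by 1 constant for a probe (spread 0.000168 in log2). What that constant was taken from stays unknown, so the table was an alternative only; its medians were 0.970, 0.993, 0.973 and 0.987 (fasted 1 to 4), then 0.987, 1.02, 0.991 and 1.02 (fed 1 to 4).

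The log2 processed signal was reduced by the log2 of the array's 75th percentile (1651 to 1944 intensity units, control spots aside). Flagged outlier spots, 128 to 217 on each array, were dropped before averaging spots by probe. Probes with at least 0.5 of their spots well above background on 4 or more of the 8 arrays were tested, 26066 of 39429. The test was limma 3.58.1 (R 4.3.3), fasted minus fed, two-sided, with no block; p-values were Benjamini-Hochberg adjusted over all tested probes, threshold 0.05. Genes were read from their brightest tested probe. RefSeq (GRCm38.p6) named 27427 of all 39429 probes by accession, and the 15184 genes counted are those with a tested probe among these. In simulations of fasted against fed (26066 probes, 200 changed, 3 runs), limma called 24.5% of 1.2-fold, 77.7% of 1.5-fold and 94.4% of 2-fold changes. It also called 23 of 77598 unchanged probes, counted over the runs. In the data themselves 4417 probes passed, far more than the 200 changed in a run. The simulated rates depend on that share, so they do not give the sensitivity of the real test.

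Fasted and fed arrays of equal number deviated together (r 0.18 to 0.29 in 4 pairs), so a replicate block was an alternative; arrays of another number on the same slide gave 0.05 to 0.27 and across slides r was -0.39 to -0.10, so number, slide and adjoining position cannot be told apart. The text names all members, up to 3 genes of smallest p in each list, and 4 genes most like Fos and 4 most like Fosb. Members and lists were chosen with earlier results of these data known. Alternatives changed scaling, background, filter, flags, blocks, slides, moderation and single arrays.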

Additional observations from a re-analysis of the deposited data

Results flagged for a closer look

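Junb on fed replicate 2 had a scaled log2 signal of -2.94, farther from the other fed arrays than Dixon's 95% limit for 4 samples allows. The other fed arrays lay between -3.31 and -3.27, and the fasted arrays between -3.72 and -3.26. This was 1 of 16 groups of 4 examined over the 8 probes, and chance flags about 1 group in 20.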

How the results depend on the processing

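Fosb and Fosl2 kept their direction under all 20 alternatives and their call under 18 of them. Within slide 1 alone Fosb gave -0.75 and Fosl2 -0.58, and within slide 2 alone -0.87 and -0.86 (log2), with 2 arrays per group and limma adjusted p of 0.116 and 0.217 for both genes. With single arrays left out, Fosb ran from -0.86 to -0.75 and Fosl2 from -0.80 to -0.61. Fos, at -0.46, passed with probes well above background on all 8 arrays (adjusted p = 0.0409), with slide as a block (0.0367) and with limma-trend (0.0274). Leaving out single arrays it ran from -0.55 to -0.32 and passed without fasted replicate 1 (0.0487) or fasted replicate 4 (0.038). Jund ran from -0.0015 to 0.0301 and turned sign without fed replicate 2. Within slides 0 and 0 of the 6 members passed, against 2 to 3 with single arrays left out. With the replicate block the members gave -0.81 for Fosb (adjusted p = 0.0121), -0.72 for Fosl2 (0.021) and -0.46 for Fos (0.0526), so that no member's call changed.

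Of 15184 genes, 2823 passed in all, 1823 with normexp background, 1539 with no filter on dim probes, 0 within slide 1 and 0 within slide 2 (3517 and 2352 at an unadjusted limma p under 0.05), and 1774 to 2417 with single arrays left out, the lowest counts being 1774 without fasted replicate 1, 1861 without fasted replicate 2 and 1875 without fed replicate 2. Fewer arrays, or more probes tested, are part of how these settings are built; the cause of the normexp count was not tested. The alternative of another kept probe gave no value, since no member had a second kept probe. Signal near background limits Fosl1 and one Fosl2 probe, and in part Junb, Dusp10, Atf3 and Maff.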
